A study of Mus musculus with 6 samples.

Results

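Hypoxia response genes outside glycolysis were followed in hearts of wild-type (WT) and *Pkm1*-knockout (KO) mouse embryos. They are 10 of the 13809 genes in the count table, picked by name for their textbook roles: the HIF subunit genes *Hif1a* and *Epas1*, the prolyl hydroxylase genes *Egln1* and *Egln3*, and the HIF targets *Vegfa*, *Adm*, *Bnip3*, *Ak4*, *Ankrd37* and *Ddit4*. All 10 were in the table and passed the filter on low counts. The names were proposed when the comparison of KO with WT was already known, so their differences are described here and are not tested as a set.

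RNA was taken from hearts at embryonic day (E) 18.5, in 3 libraries from WT and 3 from KO embryos, which the methods call biological replicates without saying whether a library holds 1 embryo. The labels call the tissue heart and the study's methods call it ventricular tissue. KO embryos were homozygous for a constitutive CRISPR/Cas9 deletion inside the exon of *Pkm* that only the PKM1 isoform of pyruvate kinase uses, so the lesion is present in every tissue and not in cardiomyocytes alone. The line began in BDF1 zygotes (DBA/2 crossed with C57BL/6J) and was bred by intercrossing heterozygotes, and the sources used here do not give the background of the sequenced embryos.

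Hypoxia-inducible factor (HIF) is a dimer of an oxygen-regulated alpha subunit and the stable beta subunit ARNT. When oxygen is sufficient, prolyl hydroxylases of the EGLN (PHD) family hydroxylate the alpha subunit, the VHL ubiquitin ligase binds it, and it is degraded; when oxygen is low it accumulates, enters the nucleus and binds short hypoxia response elements near its target genes. The targets supply vessel growth, glucose use, mitochondrial turnover and feedback on HIF itself, and in the fetal heart *Vegfa* guides the growth of the coronary vessels. Because HIF is regulated mainly as a protein, the mRNA levels below do not measure its activity.

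The letters of the hypoxia response element core were looked for in the promoters of these genes. The search is not independent of the choice of genes, since many were picked as HIF targets and HIF binds such elements near its targets. A high share was therefore likely in advance and is given as a description only. RefSeq windows on GRCm38, from 250 bases before to 50 bases after an annotated start of transcription, were found for 9 of the 10 genes (none for *Epas1*), 13 windows in all. ACGTG and GCGTG were searched on both strands, so the 6 letters CACGTG count as ACGTG once on each strand. Either core was present in at least 1 window of all 9 genes, and in 12 of the 13 windows. *Vegfa* enters this count, and those of the single cores below, only through the window of an internal start. Over all promoters of the same length, 43.8% of 32851 windows and 46.7% of 27025 genes held either core. Both cores contain CG, and the 13 windows were 54.7% to 86.0% G and C. The shares over all promoters were not matched for G and C content, expression or windows per gene, so the contrast cannot be credited to HIF. ACGTG was found in 8 of the 9 genes, against 21.8% of all genes, and GCGTG in 7 of the 9, against 35.2%. A match of 5 letters is a description of these windows and does not show that HIF binds there.

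The windows of 4 genes are shown, with the core letters of both strands in capitals. *Ankrd37* and *Ak4* had the largest fold changes between KO and WT, and *Bnip3* holds the most matches in a single window. *Ddit4* holds both cores and did not pass the threshold. A link between matches and differences was not tested. Each is given 5′ to 3′ on the strand of its gene.
Ankrd37, chr8:45999801-46000100, minus strand: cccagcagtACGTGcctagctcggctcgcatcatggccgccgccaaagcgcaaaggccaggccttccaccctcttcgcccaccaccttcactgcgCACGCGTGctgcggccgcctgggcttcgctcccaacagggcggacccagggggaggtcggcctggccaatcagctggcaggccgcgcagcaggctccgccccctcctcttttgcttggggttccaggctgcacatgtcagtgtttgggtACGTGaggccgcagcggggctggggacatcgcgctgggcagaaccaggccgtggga
Ak4, chr4:101419039-101419338, plus strand: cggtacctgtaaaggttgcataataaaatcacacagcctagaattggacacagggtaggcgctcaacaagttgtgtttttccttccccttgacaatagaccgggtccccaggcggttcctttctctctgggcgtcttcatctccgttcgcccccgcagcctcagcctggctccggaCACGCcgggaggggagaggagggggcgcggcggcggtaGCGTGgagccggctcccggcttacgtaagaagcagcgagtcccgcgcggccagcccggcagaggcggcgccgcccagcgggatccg
Bnip3, chr7:138909457-138909756, minus strand: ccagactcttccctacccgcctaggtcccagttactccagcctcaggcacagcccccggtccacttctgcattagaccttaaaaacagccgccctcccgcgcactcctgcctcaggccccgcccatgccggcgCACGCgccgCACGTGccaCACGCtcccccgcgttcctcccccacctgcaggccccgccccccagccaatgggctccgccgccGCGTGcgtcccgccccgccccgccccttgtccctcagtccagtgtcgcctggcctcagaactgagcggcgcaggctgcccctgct
Ddit4, chr10:59951721-59952020, minus strand: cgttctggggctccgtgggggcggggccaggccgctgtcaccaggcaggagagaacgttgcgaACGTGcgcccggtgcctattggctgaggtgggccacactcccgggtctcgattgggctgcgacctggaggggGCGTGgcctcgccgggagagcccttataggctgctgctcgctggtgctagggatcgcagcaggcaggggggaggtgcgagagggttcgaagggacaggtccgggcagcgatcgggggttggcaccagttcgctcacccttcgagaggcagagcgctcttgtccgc

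In *Ankrd37* the matches begin 241, 155, 152 and 6 bases before the start, and the middle pair overlaps in the run CACGCGTG. In *Bnip3* the 5 matches begin between 117 and 35 bases before the start and include the palindrome CACGTG. *Ak4* carries GCGTG on opposite strands 74 and 36 bases before its first start, and the windows of its next 2 starts cover the same letters. The window of its remaining start, not shown, adds the palindrome CACGTG and a GCGTG after the start. *Ddit4* carries ACGTG 187 and GCGTG 115 bases before its start. For *Vegfa*, the window of the upstream start had no match and that of an internal start had 2. The RefSeq starts of *Ankrd37* and *Hif1a* lie well inside the longer genes of the GENCODE annotation. The only *Hif1a* window spans 73907617 to 73907916 on chromosome 12, and the annotated gene begins at 73901375.

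**Figure D1:**
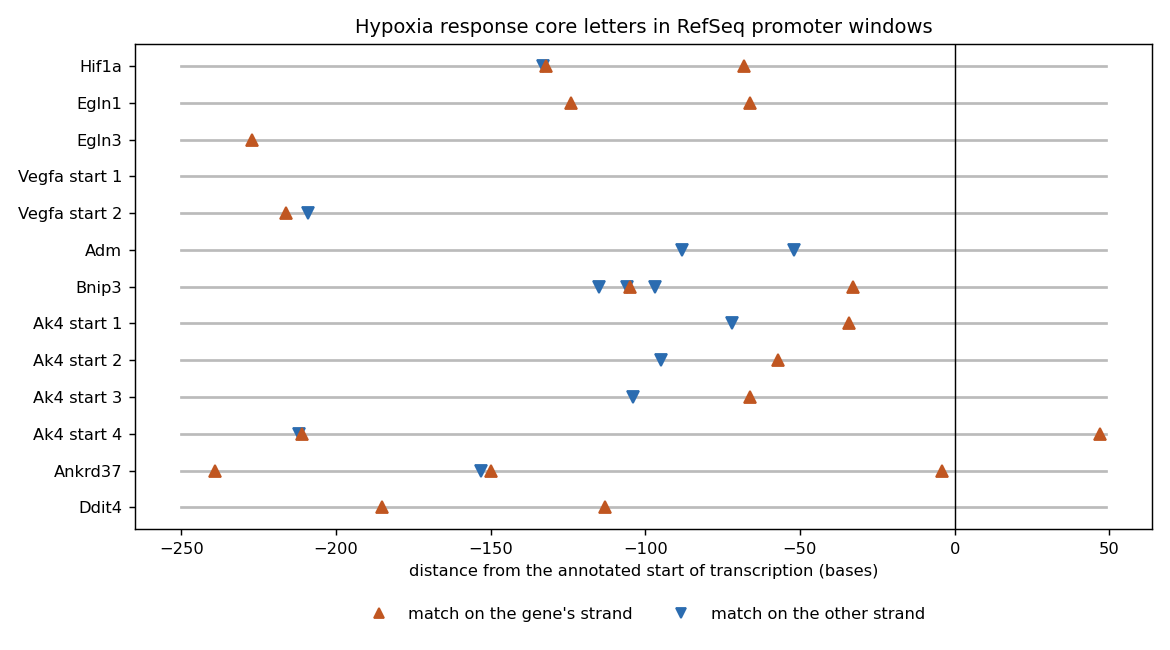
Positions of ACGTG or GCGTG in the 13 RefSeq promoter windows of 9 hypoxia response genes; the x axis is the distance in bases from the annotated start, each grey line is 1 window, and triangles point up for the gene's own strand and down for the other. Of the 13 windows, 12 hold at least 1 match, and the upstream *Vegfa* window holds none.

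Levels are given as counts scaled for library size with TMM factors (CPM), and the libraries of each genotype are called a, b and c. A gene was called higher or lower where its adjusted p was under 0.05 in edgeR's test over all 13804 genes that passed the filter. By that rule 8 of the 10 genes were higher in KO hearts, 1 (*Epas1*) was lower and 1 (*Ddit4*) was not called. Over all genes tested, 14.6% were called higher and 15.7% lower. All 3 KO libraries stood above all 3 WT libraries for 8 of the 10 genes, as for 21.0% of all genes, and below them for 1, as for 21.4% of all genes. The median log2 fold change was 0.42 over the 10 genes and 0.00 over all genes tested. Since the names were proposed with this contrast known, nothing is read from these shares.

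**Figure D2:**
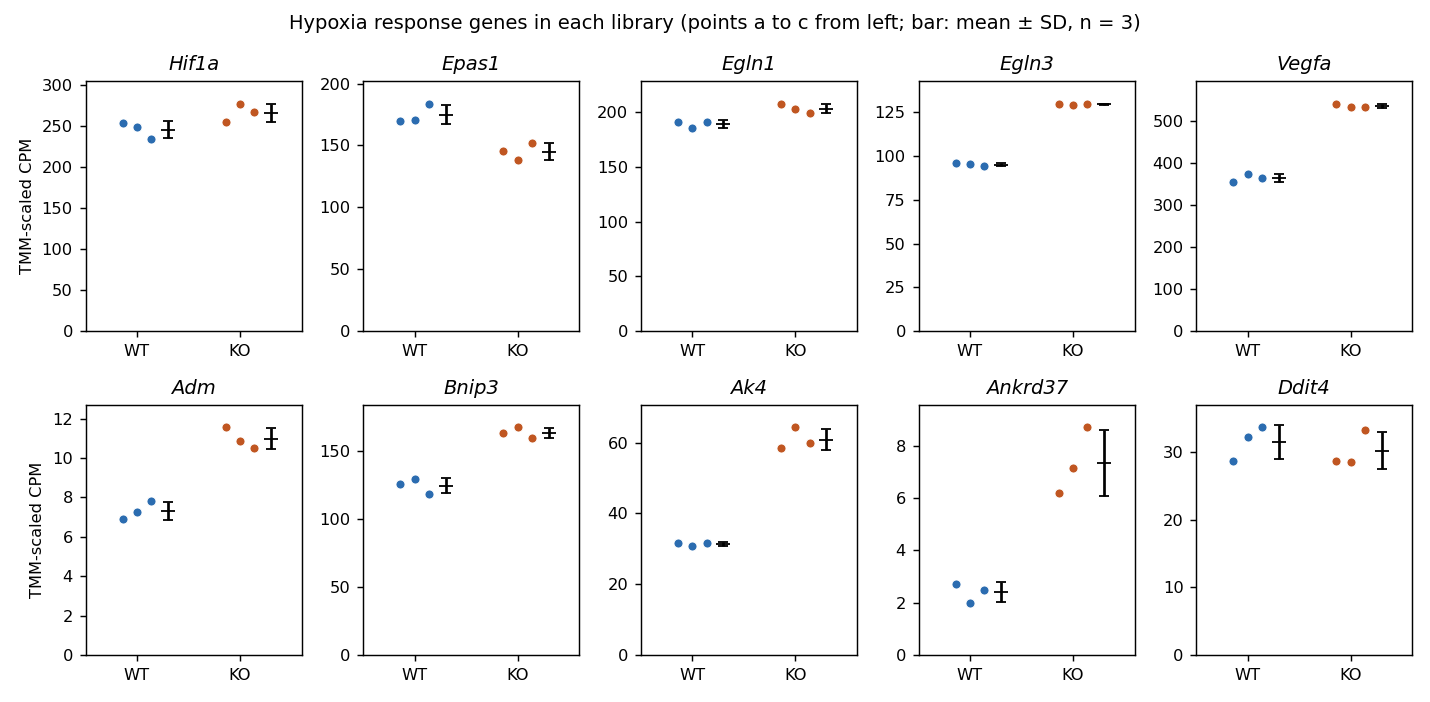
TMM-scaled CPM of the 10 genes in each library, 1 panel per gene with the y axis from 0; coloured points are libraries a to c of WT and KO, and the black mark beside them is the mean with its SD (n = 3). In 8 panels every KO point is above every WT point, for *Epas1* every KO point is below, and for *Ddit4* the groups overlap.

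The libraries held 15597756 to 19875546 counts in WT and 15567624 to 18577404 in KO, where 3 counts correspond to 0.153 to 0.197 CPM. The lowest count of any of the 10 genes was 38, for *Ankrd37*, and all the others had at least 119 in every library. The targeted gene *Pkm* was lower in KO hearts with a log2 fold change of -1.28 (standard error 0.0269), and counts per gene do not separate its isoforms. Library WT c stood apart from WT a and WT b, with a chi-square per degree of freedom of 3.76 and 3.24 over genes, against 1.56 between WT a and WT b and 1.62 to 1.88 among the KO libraries. Without WT c, the same numbers of the 10 genes were called (8 higher and 1 lower) and their median was 0.40. Each WT library held Y-linked transcripts and each KO library none, with *Xist* higher in KO, so genotype and embryo sex cannot be told apart. None of the 10 genes lies on X or Y.

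The alpha subunit genes went opposite ways. *Hif1a* (chromosome 12, 73901375 to 73947530, plus strand), which encodes the widely expressed HIF-1 alpha, was at 254, 249 and 234 CPM in WT and 254, 277 and 267 CPM in KO. KO a was level with WT a, and the lowest KO library exceeded the highest WT library by a factor of only 1.00. The means were 246 ± 10.3 and 266 ± 11.4 CPM (SD, n = 3), and the log2 fold change was 0.11 (standard error 0.0362, 95% interval 0.0386 to 0.188). The call was lost without KO b, at 0.08, and without KO c, at 0.11, so a difference of this size is at the edge of what 3 libraries resolve. The annotation places Gm15283 on the opposite strand of *Hif1a* and Gm49321 on the same strand, neither of which has its own counts in the table.

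*Epas1* (chromosome 17, 86753700 to 86833410, plus strand) encodes HIF-2 alpha, the paralog prominent in endothelial cells. Its levels were 170, 171 and 184 CPM in WT and 145, 138 and 152 CPM in KO. All KO libraries lay below all WT libraries, the lowest WT library being 1.12 times the highest KO library. Means of 175 ± 7.75 and 145 ± 6.86 CPM (SD, n = 3) gave a log2 fold change of -0.27 (standard error 0.0402, 95% interval -0.350 to -0.185), or 0.831 times the WT level. *Epas1* was the only one of the 10 genes called lower, and with each library left out in turn its log2 fold change stayed between -0.30 and -0.23. In bulk tissue, fewer cells of a type and less RNA per cell cannot be told apart. The markers of endothelial and endocardial cells moved in both directions: 3 of 10 were lower (*Pecam1*, *Cdh5* and *Tie1*) and 2 were higher (*Egfl7* and *Cldn5*). Over all genes tested, 15.7% were called lower and 14.6% higher. The summed level of the 10 markers was 1207 to 1236 CPM in WT and 1167 to 1189 CPM in KO. Their part in the *Epas1* difference was not tested.

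Both prolyl hydroxylase genes, which mark HIF alpha for destruction and are themselves HIF targets, were higher in KO hearts, by unequal amounts. *Egln1* (chromosome 8, 124908587 to 124949324, minus strand), encoding the main oxygen sensor PHD2, was at 191, 185 and 191 CPM in WT and 207, 202 and 199 CPM in KO. The groups did not overlap, though the lowest KO library was only 1.04 times the highest WT library. Its log2 fold change was 0.10 (standard error 0.0337, 95% interval 0.0352 to 0.174). The call was lost with DESeq2, with WT a and WT b summed as 1 library, and without WT b, KO a or KO b, where the log2 fold change was 0.09, 0.09 and 0.11.

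*Egln3* (chromosome 12, 54178981 to 54203860, minus strand), encoding PHD3, was at 95.9, 95.1 and 94.1 CPM in WT and 130, 129 and 130 CPM in KO. The KO libraries differed among themselves by less than for any other of the 10 genes, with a coefficient of variation of 0.232%. That is below the counting error of 2044 to 2447 counts, so it does not measure the spread between embryos. The lowest KO library was 1.35 times the highest WT library. The log2 fold change was 0.45 (standard error 0.0380, 95% interval 0.367 to 0.523).

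The secreted vascular factors rose. *Vegfa* (chromosome 17, 46016993 to 46032369, minus strand), the principal growth factor of blood vessels, was at 354, 373 and 363 CPM in WT and 541, 534 and 533 CPM in KO. The lowest KO library was 1.43 times the highest WT library. Its log2 fold change of 0.56 (standard error 0.0285, 95% interval 0.501 to 0.618) was the most precise of the 10, and its mean difference of 172 CPM was the largest in absolute terms. *Adm* (chromosome 7, 110627661 to 110629820, plus strand) encodes adrenomedullin, a peptide that widens vessels and is needed for the cardiovascular and lymphatic development of the embryo. It was at 6.89, 7.25 and 7.82 CPM in WT and 11.6, 10.9 and 10.5 CPM in KO. The groups did not overlap, and the log2 fold change was 0.59 (standard error 0.107, 95% interval 0.367 to 0.809), close to that of *Vegfa* and with a wider interval.

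*Bnip3* (chromosome 7, 138890836 to 138909519, minus strand) encodes a protein of the outer mitochondrial membrane that recruits the autophagy machinery. It was at 125, 129 and 118 CPM in WT and 163, 167 and 159 CPM in KO, with every KO library above every WT library. Its log2 fold change was 0.39 (standard error 0.0386, 95% interval 0.310 to 0.469). The annotation places the antisense gene Gm45507 over *Bnip3*, and the table gives it no counts of its own.

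*Ak4* (chromosome 4, 101419277 to 101466995, plus strand) encodes an adenylate kinase of the mitochondrial matrix, one of the enzymes that balance adenine nucleotides. It was at 31.7, 30.7 and 31.5 CPM in WT and 58.4, 64.3 and 59.9 CPM in KO. The lowest KO library was 1.84 times the highest WT library. The WT libraries had a coefficient of variation of 1.72%, which is below the counting error of their 480 to 602 counts. The log2 fold change was 0.96 (standard error 0.0561, 95% interval 0.842 to 1.07), or 1.94 times the WT level.

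*Ankrd37* (chromosome 8, 45996902 to 46005707, minus strand), a small ankyrin repeat gene known as a HIF-1 target, had the largest fold change of the 10 and the lowest WT level per length. It was at 2.72, 1.99 and 2.50 CPM in WT and 6.20, 7.14 and 8.69 CPM in KO. These rest on 47, 39 and 38 counts in WT and 117, 113 and 162 in KO. No KO library came near the WT range, the lowest being 2.28 times the highest WT library, while the KO libraries varied by 17.2% (coefficient of variation). The log2 fold change was 1.62 (standard error 0.171, 95% interval 1.27 to 1.97), or 3.07 times the WT level. Of its 1539 annotated exon bases, 349 (22.68%) lie over exons of *Lrp2bp* and 57 over exons of *Ufsp2*, both on the opposite strand, and the sources used here do not say whether counting used strand. *Lrp2bp*, chosen for this check after its values were seen, averaged 1.85 CPM in WT against 2.68 CPM in KO with a log2 fold change of 0.52 that did not pass the threshold. *Ufsp2*, chosen in the same way, was at 20.3 and 20.4 CPM.

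*Ddit4* (chromosome 10, 59949669 to 59951834, minus strand) encodes REDD1, an inhibitor of mTORC1 induced by hypoxia and by other stresses. It was at 28.7, 32.3 and 33.7 CPM in WT and 28.8, 28.6 and 33.4 CPM in KO. The groups overlapped along almost their whole range. The log2 fold change was -0.06 (standard error 0.0719), and its 95% interval of -0.205 to 0.0906 leaves out a rise of the size seen for *Bnip3* or *Egln3*. *Ddit4* was the only one of the 10 genes that was called in neither direction.

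**Figure D3:**
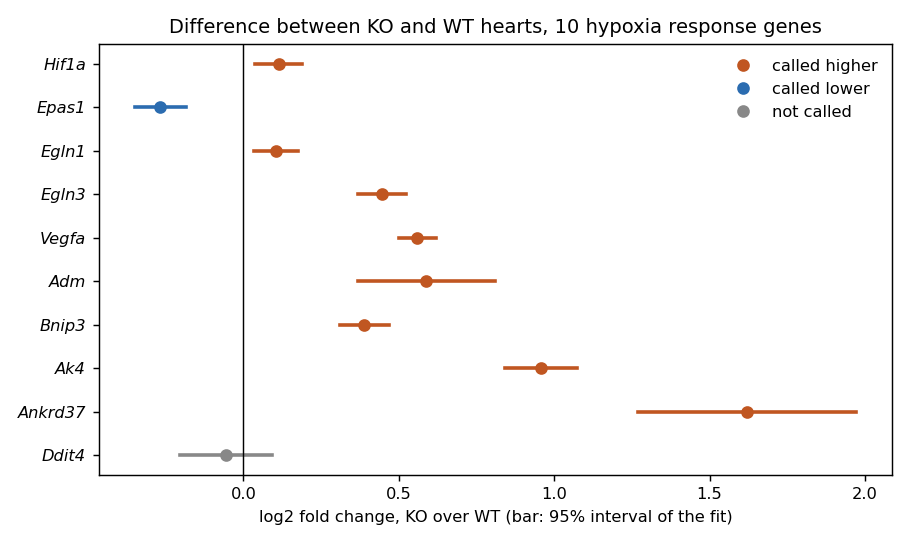
Log2 fold change of KO over WT for the 10 genes (x axis), ordered by role; points are estimates of the edgeR fit, bars their 95% intervals, and colours the call. *Ankrd37* and *Ak4* lie farthest to the right at 1.62 and 0.96, *Hif1a* and *Egln1* sit just right of 0, *Epas1* is left of 0 and the bar of *Ddit4* crosses 0.

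Levels of different genes were compared per kilobase of annotated exon. In WT hearts *Vegfa* had the highest level at 84.8 ± 2.17 CPM per kilobase (SD, n = 3), followed by *Bnip3* at 54.8 ± 2.34, *Egln1* at 52.5 ± 0.944, *Hif1a* at 41.7 ± 1.74, *Egln3* at 35.7 ± 0.344 and *Epas1* at 31.3 ± 1.39. The low end held *Ddit4* at 18.0 ± 1.46, *Ak4* at 6.74 ± 0.116, *Adm* at 4.52 ± 0.289 and *Ankrd37* at 1.56 ± 0.244 CPM per kilobase. Among neighbours in this order, the library ranges overlapped only for *Bnip3* and *Egln1*. Which neighbours lie close depends on the length used. With the longest transcript, the WT means were 70.7 for *Bnip3*, 52.5 for *Egln1* and 52.0 CPM per kilobase for *Hif1a*. In KO hearts the level of *Egln3*, 48.6 ± 0.113 CPM per kilobase, stood above that of *Hif1a*, 45.1 ± 1.93, the reverse of their WT order, and the other 8 genes kept their places. That reversal depends on the length used: with the longest transcript, *Hif1a* stayed above *Egln3* in KO, at 56.3 and 48.6 CPM per kilobase, while *Ankrd37* and *Adm* came to 7.92 and 7.90. *Vegfa* reached 125 ± 1.00 and *Ankrd37* 4.77 ± 0.819 CPM per kilobase. On this scale *Vegfa* exceeded *Ankrd37* by a factor of 54.3 in WT, or 40.6 when the longest transcript was used as the length.

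**Figure D4:**
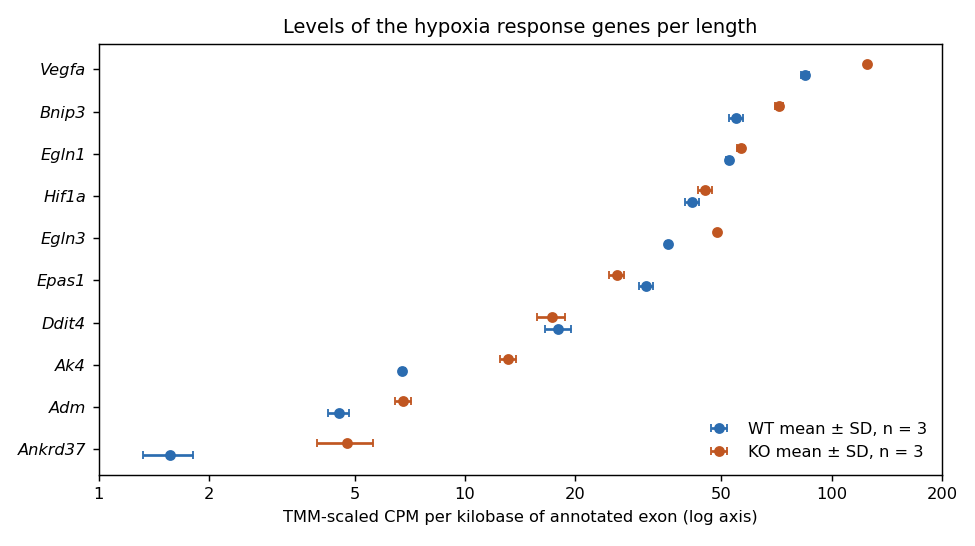
Levels of the 10 genes in TMM-scaled CPM per kilobase of annotated exon on a log axis, sorted by the WT mean; points are means and bars SD (n = 3) for WT and KO. *Vegfa* is highest in both groups, at 84.8 and 125, and *Ankrd37* lowest, at 1.56 and 4.77.

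The rest of the HIF machinery was called in both directions. Of 17 further genes of subunits, hydroxylases, the VHL complex and coactivators, 3 were higher, 3 lower and 11 not called, with a median log2 fold change of -0.04. These shares are close to the 14.6% higher and 15.7% lower of all genes tested. This list and those below were chosen with earlier results of these data known, so their counts are described and not tested as sets. *Vhl*, whose product recognises hydroxylated HIF alpha, was higher, averaging 10.9 ± 0.673 CPM in WT against 17.6 ± 0.602 CPM in KO (SD, n = 3; log2 fold change 0.69, standard error 0.0883). *Cited2*, a HIF target that competes with HIF alpha for the coactivators p300 and CBP, was lower, averaging 51.1 ± 0.667 CPM in WT against 21.8 ± 0.556 CPM in KO (log2 fold change -1.23, standard error 0.0591). *Ep300*, encoding p300, was higher at 0.19. *Arnt*, the beta subunit, was lower at -0.13, *Tceb2*, encoding elongin B of the VHL complex, lower at -0.16, and *Hif3a*, the third alpha subunit gene, higher at 0.09. These last 3 calls were lost when single libraries were left out: *Arnt* without WT a (-0.12) or KO a (-0.12), *Tceb2* without WT c (-0.10) or KO b (-0.15), and *Hif3a* without any library but WT c, where it lay between 0.07 and 0.10. The *Hif3a* call was also lost with DESeq2 and with WT a and WT b summed. *Arnt2*, *Egln2* and *Hif1an*, which encodes the asparagine hydroxylase FIH, were not called, at 0.14, -0.08 and 0.04.

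Beyond *Vegfa* and *Adm*, 15 vascular and secreted HIF targets were tested, of which 6 were higher and 2 lower, with a median log2 fold change of 0.12. Among all genes tested, 14.6% were called higher and 15.7% lower. *Tfrc*, the transferrin receptor, averaged 135 ± 10.3 CPM in WT against 223 ± 2.60 CPM in KO (log2 fold change 0.72). *Stc2*, a secreted glycoprotein hormone, was higher at 0.66, the vasoactive peptide gene *Apln*, which is X-linked, at 0.43, the VEGF receptor gene *Flt1* at 0.21 and *Igfbp3*, an IGF-binding protein, at 0.17. *Edn1*, encoding endothelin-1, fell from 21.0 ± 1.03 to 9.47 ± 0.658 CPM (SD, n = 3; log2 fold change -1.15, standard error 0.0885). The *Igfbp3* call was lost with DESeq2 and without WT b (0.14) or KO c (0.13).

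Among the ligands and receptors around *Vegfa* and *Adm*, 2 of 13 were higher (*Flt1* and *Nrp1*, the VEGF co-receptor neuropilin-1, at 0.15) and 1 was lower (*Ramp2*, which pairs with the adrenomedullin receptor, at -0.20), with a median of 0.06. *Kdr*, the main signalling receptor for VEGF-A, averaged 301 ± 6.74 CPM in WT against 313 ± 7.35 CPM in KO and was not called (0.06). *Calcrl*, the adrenomedullin receptor, was not called either (0.07, or -0.02 without WT c). The *Ramp2* call was lost with DESeq2 and without WT b (-0.16), KO a (-0.18) or KO b (-0.15), and 33.41% of its exon bases are shared with *Vps25* on the same strand. The other 10 were not called, beside 69.7% of all genes tested.

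Of 29 other HIF targets outside glycolysis, 16 were higher and 1 lower, with a median log2 fold change of 0.28. The shares of all genes tested were 14.6% higher and 15.7% lower, and the list was chosen with earlier results known. The genes with the largest fold changes among those called were *Bhlhe40*, a transcriptional repressor (0.62), *Ndrg1*, a stress-responsive gene (0.53), *P4ha1*, a collagen prolyl hydroxylase subunit (0.48), *Kdm3a*, a histone demethylase (0.47), and *Zfp395*, a zinc finger gene (0.46). *Ndrg1* averaged 58.5 ± 1.55 CPM in WT against 84.6 ± 0.943 CPM in KO, and *Kdm3a* at 78.6 ± 1.35 and 109 ± 2.71 CPM (SD, n = 3). *Wsb1*, a ubiquitin ligase subunit, was lower at -0.26. The 19 glycolytic HIF targets tested gave 13 higher and 1 lower, beside the same shares of all genes, with a median of 0.17. They included *Pfkfb3* at 1.05, *Slc2a1*, the glucose transporter GLUT1, at 0.68, *Pgam1* at 0.61 and *Slc16a3*, a lactate transporter, at 0.58. *Eno1b*, counted among the 13, averaged 0.643 ± 0.231 CPM in WT against 27.7 ± 2.87 CPM in KO. Its near-identical parent gene *Eno1* has no counts of its own in the table, and the split of reads between them is uncertain. *Pfkm*, the muscle phosphofructokinase, was lower at -0.09, a call lost with DESeq2 and without WT b, KO a or KO c (-0.09, -0.09 and -0.07).

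The partners of *Bnip3* in mitophagy were also called in both directions. Of 13, 2 were higher and 7 lower, beside 14.6% higher and 15.7% lower of all genes tested, and their median was -0.12. *Bnip3l*, the paralog of *Bnip3* with the same function, averaged 72.0 ± 2.41 CPM in WT against 87.5 ± 2.48 CPM in KO (log2 fold change 0.28, standard error 0.0449), and *Bcl2*, which BNIP3 binds, was higher at 0.51. Genes of autophagy adaptors and membrane tags were among the lower ones, with *Gabarapl1* at -0.69, *Map1lc3a* at -0.31 and *Sqstm1* at -0.23. *Bcl2l1*, the BCL-XL gene, was lower at -0.36 and *Pink1*, the kinase of the other mitophagy route, at -0.22.

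Around *Ddit4*, 4 of 13 mTORC1 pathway genes were higher and 1 lower, with a median of 0.10, beside 14.6% higher and 15.7% lower of all genes tested. *Ddit4l*, the paralog of *Ddit4*, averaged 1.03 ± 0.317 CPM in WT against 1.85 ± 0.222 CPM in KO (log2 fold change 0.82, standard error 0.277), a call lost with DESeq2 and without WT b (0.73), WT c (0.68), KO b (0.74) or KO c (0.83). *Mlst8*, an mTOR complex subunit, was higher at 0.36, and *Tsc1* and *Tsc2*, through whose complex REDD1 acts, at 0.27 and 0.12, the *Tsc2* call being lost without WT b (0.10), KO b (0.12) or KO c (0.11). *Sesn1*, another stress-induced inhibitor of mTORC1, was lower at -0.41. Of the other adenylate kinase genes, 5 were tested and 0 were called in either direction by the quasi-likelihood test of edgeR or by DESeq2, with 3 at an unadjusted p under 0.05 in the former. By the edgeR test 69.7% of all genes tested were not called, so 0 of 5 does not set this family apart. *Ak3*, the other matrix enzyme, had a log2 fold change of -0.09, which was called only without WT c (-0.13), and *Ak1*, the cytosolic enzyme, of 0.00.

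**Figure D5:**
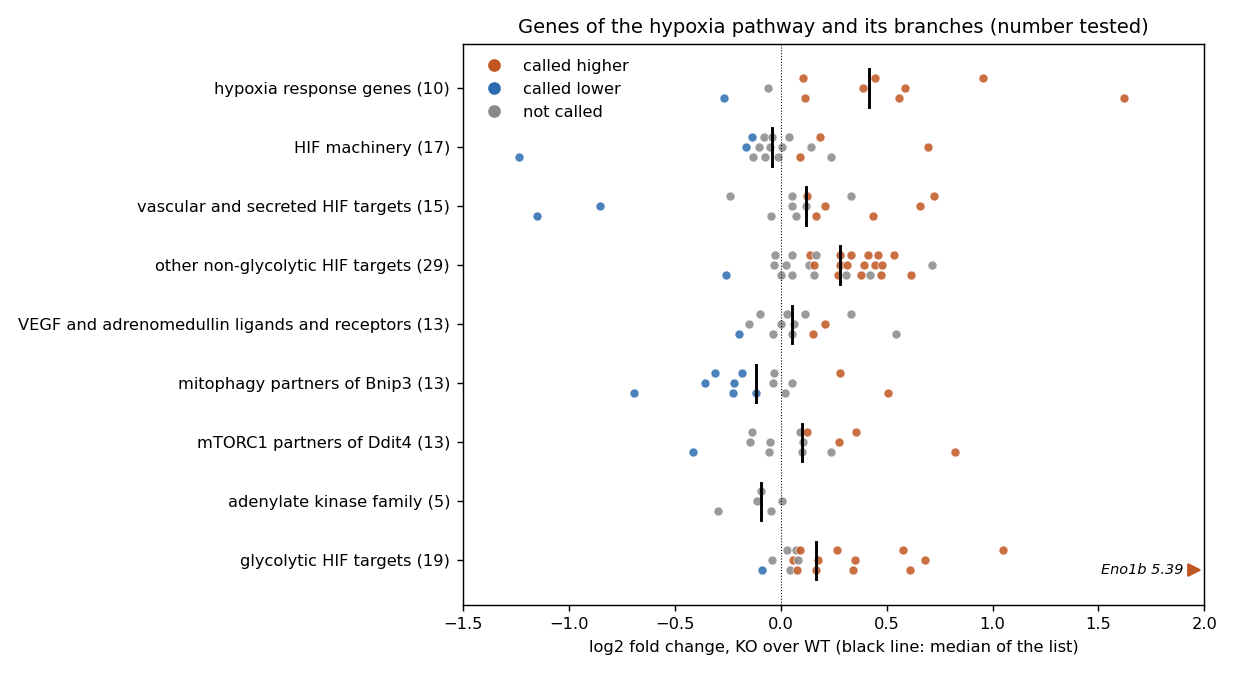
Log2 fold change of KO over WT (x axis) for every tested gene of the 10 hypoxia response genes and 8 further lists, with the number tested in brackets; points are genes coloured by call, spread vertically only for legibility, and black lines are list medians. The medians run from -0.12 for the mitophagy partners to 0.42 for the 10 genes, and the arrow marks *Eno1b* beyond the axis at 5.39.

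Markers of the cells in the tissue were called in part. Over all genes tested, 14.6% were called higher and 15.7% lower, and the small counts per cell type are given beside those shares as a description. Of the 10 cardiomyocyte markers, 2 were higher and 6 lower, with a summed level of 134371 to 138521 CPM in WT and 128511 to 129751 CPM in KO, so the labelled tissue was recognised in every library. Fibroblast markers summed to 3946 to 3992 CPM in WT and 3677 to 3746 CPM in KO (4 of 8 called, all lower), and smooth muscle and pericyte markers to 957 to 996 and 946 to 949 CPM (1 of 8 higher, 3 lower). Epicardial markers were higher in 3 of 5, at 70.8 to 73.2 CPM in WT and 86.9 to 92.5 CPM in KO, and atrial markers in 3 of 5, at 593 to 599 and 1004 to 1028 CPM. Immune markers summed to 39.3 to 42.5 and 38.1 to 44.4 CPM (1 of 7 called, lower), and the 3 erythroid markers in the table to 33.5 to 35.5 and 35.8 to 43.0 CPM (1 higher, 1 lower). All 10 immediate early genes, which respond to tissue handling within minutes, were lower in KO hearts, with sums of 831 to 901 CPM in WT and 219 to 225 CPM in KO. No marker was at 0 in all libraries of a group except the 4 Y-linked genes in KO. The part of these shifts in the differences of the 10 hypoxia response genes and of the listed pathway genes was not tested.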

How the data were processed

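Total RNA from E18.5 hearts, depleted of ribosomal RNA and sequenced as paired ends, gave 3 libraries from WT and 3 from KO embryos. The submitters' processing notes name cutadapt 1.18, HISAT2, StringTie and the mm10 build. The counting program and its strand setting are not given in the sources used here. Raw counts for 13809 gene symbols were deposited by the authors, together with columns of their own comparison of KO with WT, which were not used. The columns carry genotype but no replicate number, so libraries are named a to c in column order.

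The fit used edgeR 4.0.16 (R 4.3.3): filterByExpr kept 13804 genes, TMM scaled the libraries, and genotype alone entered the quasi-likelihood test. P-values were adjusted by the Benjamini-Hochberg method over all tested genes, with a threshold of 0.05. The p-values compare the difference between genotypes with the spread between libraries. The fit estimates that spread partly from the other tested genes, and not from a gene's own 3 libraries per genotype alone. The intervals of the fold changes rest on the same estimate. Depth was 15567624 to 19875546 counts per library, and 3 counts were taken as the limit of detection (counting error only). No replicate pair agreed within sampling noise.

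The 10 genes and all lists were chosen with earlier results of these data known. Besides the 10 genes, *Pkm* and 12 pathway genes chosen for their roles, up to 5 genes in each direction were named per list, those with the largest fold change among called genes of at least 1 CPM. Lists overlap in *Flt1*, *Kdr*, *Pgf* and *Bnip3l*. Symbols were placed on GENCODE vM21 (13299 of 13809) or RefSeq (492), and promoter windows come from RefSeq on GRCm38. Alternative tests were DESeq2 1.42.0, the exact test and voom of limma 3.58.1. Alternative scalings were RLE, and TMM with *Rn45s* and any mitochondrially encoded genes left out. Other alternatives were no filter, at least 10 counts in every library, X and Y left out, and WT a and WT b summed. The last were a change of at least 1.5-fold, and each library left out. The fit was tested on simulated data. Protein comparisons were not run. The values of 1 gene that a list counts are not reported here. Figures were drawn with matplotlib 3.10.9 in Python 3.11.15.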

Additional observations from a re-analysis of the deposited data

How the results depend on the processing

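Of the 10 hypoxia response genes, 6 to 8 were called higher and 1 lower under the alternatives to the fit, the changes being those of *Hif1a* and *Egln1*. Asking also for a change of at least 1.5-fold, an alternative chosen for them after seeing the data, left 3 higher (*Ak4*, *Adm* and *Ankrd37*) and 0 lower. Single-gene values that were named kept their direction and their side of the threshold in 799 cases, lost the call in 37 and gained it in 1. *Calcrl*, not called, reversed without WT c, and ranged from -0.0235 to 0.137 as single libraries were left out. The whole table gave 413 higher and 442 lower genes with a change of at least 1.5-fold, and 1362 to 2165 higher and 1639 to 2306 lower over the other alternatives, against 2011 and 2168. With DESeq2 the single lower call was lost (0 genes) among the VEGF and adrenomedullin ligands and receptors and among the glycolytic targets. When single libraries were removed, the former list had 0 to 1 lower genes, the glycolytic targets 0 to 1, the adenylate kinases 0 to 2 and the mTORC1 partners 2 to 4 higher. The cause was not tested, though the fits with a library removed hold fewer samples. The WT ratio of *Vegfa* to *Ankrd37* per length was 40.6 with the longest transcript, against 54.3. No paired analysis was possible because the count columns name a genotype and give no number to match libraries across groups. Depth limits low genes most: *Ankrd37* rests on as few as 38 counts in a library, and *Ddit4l* lies near 1 CPM.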
